A study of Mus musculus with 12 samples.

Results

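The 10 genes described here encode DNA methyltransferases (Dnmt1, Dnmt3a and Dnmt3b), Tet dioxygenases (Tet1, Tet2 and Tet3) and regulators of Polycomb silencing (Ezh1, Ezh2, Bmi1 and Asxl1). They are listed by name for their known function and are 10 of the 49585 genes in the count data, of which 11848 passed the filter on low counts. All 10 passed it. HSCs were Lin-, Sca1+, ckit+, CD135- and CD150+ bone marrow cells. This gate holds both long-term stem cells and the MPP2 type of multipotent progenitor. The cells came from 6 wild-type mice (WT) and 6 Pon2-/- mice, aged 10 to 14 weeks. The study's methods name C57BL/6J beside the WT mice in a list of the mice housed, which does not settle the strain of those sequenced. They do not state the strain background of the Pon2-/- mice. The Pon2-/- mice carry a gene trap in an intron of Pon2, which encodes the antioxidant enzyme paraoxonase 2, in every cell of the body. Each sample is 1 mouse, from which 8 wells of 10 cells were sequenced after Smart-seq2 amplification.

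DNA methyltransferases place methyl groups on cytosines of CpG sites: Dnmt1 copies the pattern onto newly replicated DNA, while Dnmt3a and Dnmt3b set new methylation. Tet enzymes oxidise methylcytosine and so start its removal. Polycomb repressive complex 2 (PRC2), with Ezh1 or Ezh2 as its catalytic subunit, methylates lysine 27 of histone H3, and PRC1, of which Bmi1 is a subunit, ubiquitinates histone H2A. In hematopoietic stem cells these enzymes are known for balancing self-renewal and differentiation, and DNMT3A, TET2 and ASXL1 are the genes best known as mutated in human clonal hematopoiesis.

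The libraries held 12967791 to 24228280 counts on genes and 13941 to 15656 detected genes. Values are given as CPM, counts per 1000000 counts of the scaled library. Pon2 lay at 56.4, 105 and 202 CPM (lowest, median and highest) in WT and at 1.16, 29.9 and 33.1 CPM in Pon2-/- mice. The genotypes did not overlap, with the exact permutation p at 0.002165, the smallest that relabelling these mice can give. In the edgeR fit its log2 fold change was -2.13 ± 0.57 (SE) with an adjusted p of 0.586, so that the test used for the members did not call the targeted gene. All 13 markers of stem and progenitor cells examined were counted, and their summed level was 2442 to 3120 CPM in WT and 2501 to 3068 CPM in Pon2-/- mice. The sum includes Cd34 (138 to 497 CPM over all mice) and Flt3 (4.59 to 65.0 CPM). Flt3 encodes CD135, for which the gate was negative, so that the sum is not a measure of the purity of the gate. Summed myeloid markers ranged from 878 to 9749 CPM in WT and from 843 to 14863 CPM in Pon2-/-, and summed B lineage markers from 25.5 to 475 CPM and from 69.3 to 10460 CPM, with wide differences between single mice in both genotypes. Few genes made up the highest sums, mainly S100a8 (8577 CPM) and S100a9 (3427 CPM) for the myeloid list and Ighm (10300 CPM) for the B lineage list. In such bulk samples, fewer cells of a type and less RNA per cell cannot be told apart.

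Which of the 10 genes was most abundant in these cells was read from RPKM, CPM per 1000 bases of all exons of the gene. Dnmt1 stood highest at 33.8 ± 12.2 RPKM (mean ± SD, n = 12 mice), followed by Dnmt3b at 15.7 ± 6.95 and Ezh2 at 9.50 ± 3.33 RPKM. Bmi1 (7.43 ± 4.55), Ezh1 (7.21 ± 4.16) and Dnmt3a (7.14 ± 2.47 RPKM) formed a middle group. Asxl1, a Polycomb-associated scaffold of a histone H2A deubiquitinase, lay at 5.83 ± 3.21, Tet1 at 5.53 ± 1.69, Tet2 at 3.98 ± 2.71 and Tet3 at 1.96 ± 1.09 RPKM.

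Dnmt1 exceeded Dnmt3b in 10 of 12 mice, and Tet2 exceeded Tet3 in 10 of 12. Neighbours in the middle of the order were not separated beyond their spread: the log2 difference between Bmi1 and Ezh1 was 0.017 ± 1.28 (mean ± SD over mice), and Ezh1 exceeded Dnmt3a in 6 of 12 mice. The order below Dnmt1 depends on the length used. With the longest transcript in place of all exons, Ezh2 moved to 22.8 RPKM and to the second place, ahead of Dnmt3b at 18.5 RPKM. Tet3 was last with either length.

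**Figure D1:**
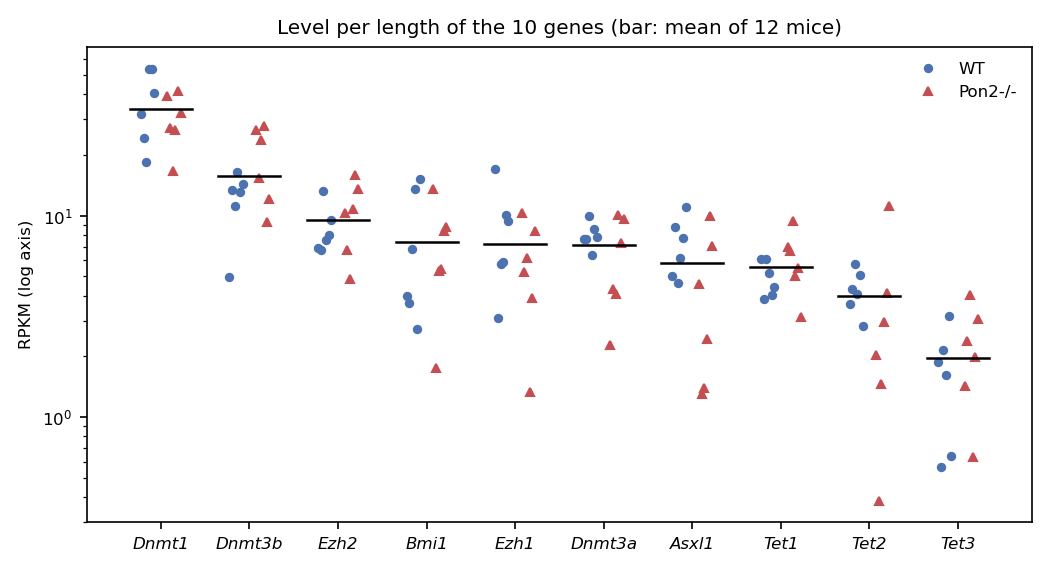
RPKM (log axis) of the 10 genes in each of the 6 WT (circles) and 6 Pon2-/- mice (triangles), ordered by the mean over 12 mice (bar). Dnmt1 stands highest at a mean of 33.8 RPKM and Tet3 lowest at 1.96 RPKM, and the points of most neighbouring genes overlap.

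The level of some genes varied far more between mice than that of others. The highest mouse exceeded the lowest 29.0-fold for Tet2, 12.8-fold for Ezh1, 8.70-fold for Bmi1 and 8.53-fold for Asxl1. Tet1 (3.02-fold), Dnmt1 (3.23-fold) and Ezh2 (3.27-fold) were the steadiest. The lowest count of any member in any library was 142, for Ezh1. Reads were amplified from few cells without molecular identifiers, so that counts are not independent molecules, and differences between mice cannot be told apart from the sampling of molecules before amplification.

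The question whether loss of Pon2 alters this machinery was put to an edgeR quasi-likelihood test across all 11848 genes. No member passed the thresholds (FDR below 0.05 and absolute log2 fold change above 1), which 24 genes (0.203%) passed in all, 15 (0.127%) higher and 9 (0.076%) lower in Pon2-/- mice, and no member reached an unadjusted p below 0.05, which 3.13% of genes did. Fitted changes lay above 0 for 4 members and below 0 for 6, with a median of -0.15 on the log2 scale beside -0.0092 over all tested genes. The genotypes overlapped for each member, whereas 75 tested genes (0.633%) did not overlap.

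**Figure D2:**
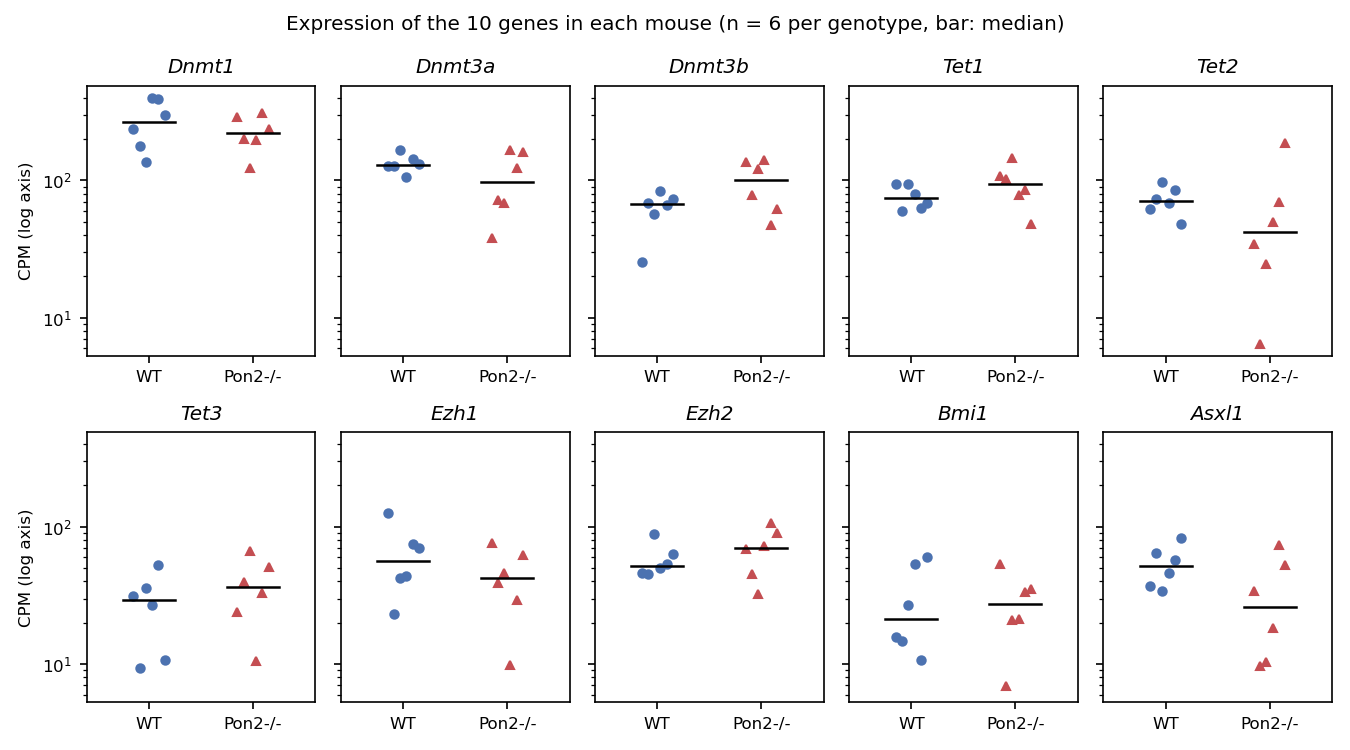
CPM (log axis) of each member in WT (circles) and Pon2-/- mice (triangles), with the median of 6 mice per genotype as a bar. The genotypes overlap for all 10 genes, and Tet2 spans 6.47 to 188 CPM in Pon2-/- mice.

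Dnmt1 (ENSMUSG00000004099.16, chr9:20907209-20959888, minus strand, GRCm38), the maintenance enzyme, lay at 135, 267 and 395 CPM (lowest, median and highest) in WT and at 122, 219 and 307 CPM in Pon2-/- mice. All but 1 of the Pon2-/- mice fell inside the WT range. The fitted log2 fold change was -0.27 with an SE of 0.28 and a 95% interval from -0.88 to 0.34 (edgeR, adjusted p = 0.9999).

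Dnmt3a (chr12:3806007-3914443, plus strand), the de novo enzyme known for its part in stem cell differentiation, lay at 106, 129 and 166 CPM in WT and at 37.9, 97.2 and 167 CPM in Pon2-/- mice. WT mice were closely grouped, while 3 Pon2-/- mice lay below all of them and 1 above. Its log2 fold change was -0.35 ± 0.32 (SE; 95% interval -1.03 to 0.33; edgeR, adjusted p = 0.9999).

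Dnmt3b (chr2:153649450-153687730, plus strand), the second de novo enzyme, went the other way, with 25.4, 67.4 and 84.2 CPM in WT and 47.2, 99.8 and 141 CPM in Pon2-/- mice. In 3 Pon2-/- mice it stood above all WT mice, and none stood below them. The log2 fold change of 0.64 ± 0.34 (SE) had an interval from -0.08 to 1.37, and its unadjusted p of 0.0779 was the smallest of the 10 members (edgeR, adjusted p = 0.9999).

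Tet1 (chr10:62804570-62908996, minus strand) lay at 59.6, 74.1 and 94.0 CPM in WT and at 48.2, 93.8 and 146 CPM in Pon2-/- mice, with a log2 fold change of 0.31 ± 0.26 (SE). It stood above all WT mice in 3 Pon2-/- mice and below them in 1. Tet2 (chr3:133463679-133545139, minus strand), the member of its family best known in blood, lay at 47.9, 70.7 and 96.4 CPM in WT and at 6.47, 42.1 and 188 CPM in Pon2-/- mice. The Pon2-/- values thus spread to both sides of the WT range, and the log2 fold change of -0.22 ± 0.57 (SE) had a 95% interval from -1.45 to 1.02. Tet3 (chr6:83362373-83459084, minus strand) lay at 9.45, 29.2 and 53.1 CPM in WT and at 10.5, 36.4 and 67.2 CPM in Pon2-/- mice, and its genotypes covered nearly the same range.

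Ezh1 (chr11:101191115-101226463, minus strand), the PRC2 enzyme associated with resting cells, lay at 23.2, 56.8 and 126 CPM in WT and at 9.84, 42.6 and 76.6 CPM in Pon2-/- mice. Ezh2 (chr6:47530139-47595341, minus strand), its counterpart in dividing cells, lay at 45.1, 52.0 and 88.1 CPM in WT and at 32.4, 70.4 and 106 CPM in Pon2-/- mice. Neither pair of ranges was separated: the log2 fold changes were -0.53 ± 0.49 (SE) for Ezh1 and 0.26 ± 0.31 (SE) for Ezh2. Ezh2 shares 174 exon bases with the opposite-strand gene Gm26625, which strandless libraries cannot separate, and Gm26625 held 4.53% as many counts.

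Bmi1 (chr2:18677018-18686629, plus strand), known for the self-renewal of stem cells, lay at 10.8, 21.5 and 60.4 CPM in WT and at 6.94, 27.4 and 53.8 CPM in Pon2-/- mice. Its log2 fold change of -0.09 ± 0.59 (SE) was the closest to 0, yet the interval ran from -1.36 to 1.18. Asxl1 (chr2:153345829-153404007, plus strand) lay at 34.3, 51.7 and 82.4 CPM in WT and at 9.66, 26.1 and 74.1 CPM in Pon2-/- mice, and 4 Pon2-/- mice were below all WT mice. The log2 fold change of -0.70 ± 0.52 (SE; 95% interval -1.81 to 0.42; edgeR, adjusted p = 0.9999) was the lowest of the members. Asxl1 shares 197 exon bases with the opposite-strand gene 2500004C02Rik, whose counts amounted to 24.5% of those of Asxl1.

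The exact permutation test on log2 CPM, run member by member, gave unadjusted p-values between 0.0952 (Asxl1) and 0.972 (Bmi1). The intervals of the edgeR fit allow changes of more than 1 log2 unit in either direction for Tet2 and Bmi1. For Dnmt1, Tet1 and Ezh2 they lay within 1 log2 unit of 0, and for the other members they reached beyond 1 on 1 side.

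**Figure D3:**
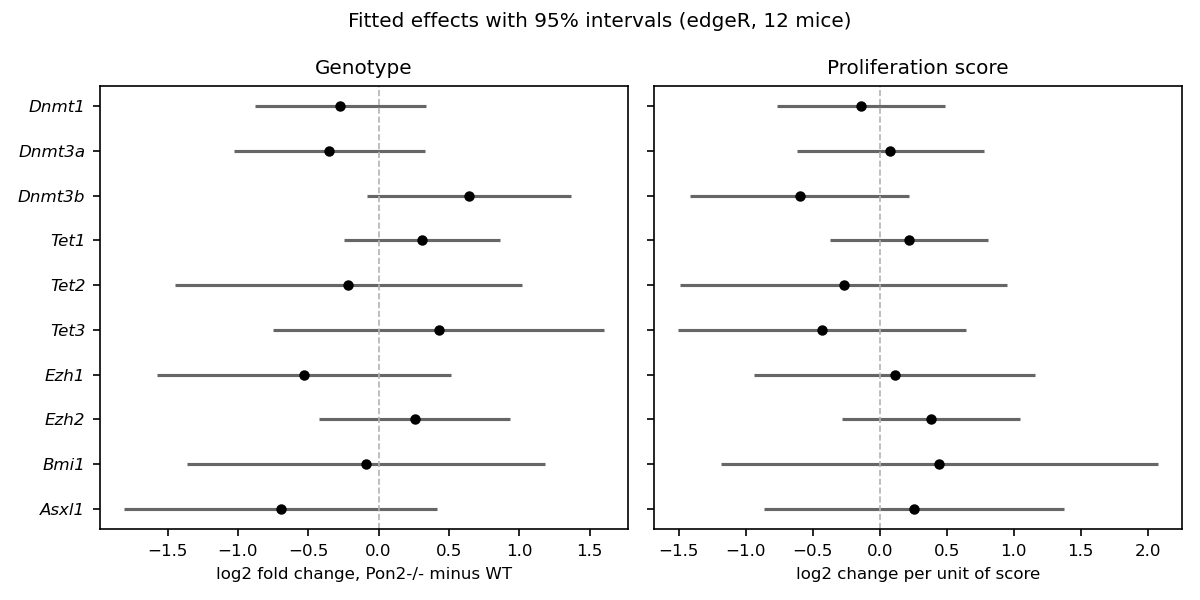
Fitted effects of the 10 members with 95% intervals (edgeR, 12 mice): left, log2 fold change of Pon2-/- over WT; right, log2 change per unit of the proliferation score. All intervals cross 0, and that of Dnmt3b reaches from -0.08 to 1.37 on the left.

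In Dnmt3a, Tet2 and Asxl1 the same 3 Pon2-/- mice (replicates 1, 2 and 3) lay below every WT mouse; this pattern was chosen after the values were seen and was not tested. Of these mice, replicate 1 had the highest summed myeloid markers of all 12 (14863 CPM), mostly S100a8 (8577), S100a9 (3427) and Lyz2 (2422 CPM). Prtn3 (385 CPM) and Itgam (17.8 CPM) were also highest in this mouse, while Mpo stood at 21.7 CPM. Elane and Ctsg had no count there, as in most other mice. Replicate 3 had the highest summed B lineage markers (10460 CPM), of which Ighm alone gave 10300 CPM. Replicate 2 lay within the WT range for both sums (2668 and 115 CPM). Any part of such cells in the pattern was not tested. Dnmt3a stood at 37.9, 72.2 and 67.9 CPM in these mice against 106 CPM in the lowest WT mouse. Tet2 stood at 34.2, 6.47 and 24.6 CPM against 47.9 CPM. Asxl1 stood at 33.9, 9.66 and 10.4 CPM against 34.3 CPM, so that replicate 1 was lower by little.

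These 3 genes are 30.0% of the members, while 225 tested genes (1.9%) showed the same arrangement. The mice, the direction and the genes were all picked from these values. The shares and the SDs that follow are therefore a description, not a test. The remaining Pon2-/- mice were within or above the WT range for Dnmt3a and Tet2, up to 167 and 188 CPM, whereas Asxl1 in replicate 4 was also low at 18.2 CPM. The SD of log2 CPM was larger in Pon2-/- than in WT mice 4.55-fold for Tet2 and 3.88-fold for Dnmt3a, and was 0.49 in WT and 1.22 in Pon2-/- mice for Asxl1. Ratios as high occurred in 1.85%, 2.88% and 8.74% of tested genes. Over the 10 members, 7 had the larger SD in Pon2-/- mice (70.0%), beside 52.7% of all tested genes.

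**Figure D4:**
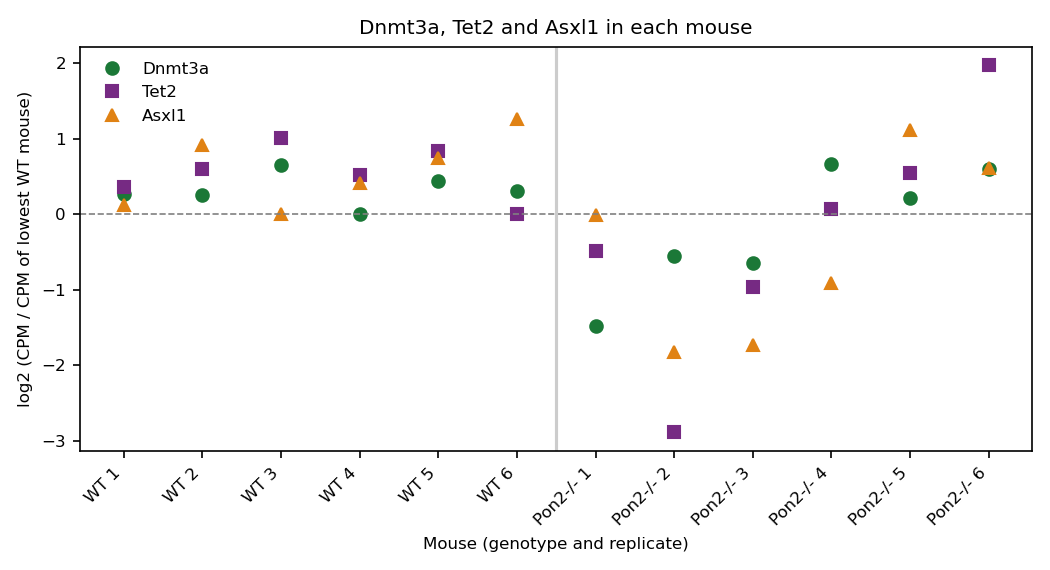
Log2 of CPM over the CPM of the lowest WT mouse for Dnmt3a (circles), Tet2 (squares) and Asxl1 (triangles) in each of 12 mice; the dashed line marks that lowest WT mouse. All 3 genes lie below the line in Pon2-/- replicates 1, 2 and 3, where Tet2 is as low as 6.47 CPM.

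The balance between related enzymes was compared as a log2 ratio of their CPM in each mouse, which does not depend on library scaling beyond the prior count. Dnmt3a over Dnmt3b was 1.17 ± 0.68 (SD, n = 6) in WT and 0.03 ± 1.25 in Pon2-/- mice, with more CPM on Dnmt3a in 6 of 6 WT and 3 of 6 Pon2-/- mice. CPM do not account for gene length. Per length (RPKM), Dnmt3a exceeded Dnmt3b in 1 of 6 WT and 0 of 6 Pon2-/- mice. The difference in the log2 ratio between the genotypes, -1.14, did not reach significance (exact permutation p = 0.0866, two-sided, unadjusted, 1 of 3 ratios tested). Tet2 over Tet3 was 1.58 ± 0.82 in WT and 0.28 ± 1.91 in Pon2-/- mice (exact permutation p = 0.182). Ezh1 over Ezh2 was -0.02 ± 0.94 in WT and -0.80 ± 1.30 in Pon2-/- mice (exact permutation p = 0.273).

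Whether the members follow cell division was examined because Dnmt1 and Ezh2 are known as genes of cycling cells. A proliferation score, the mean centred log2 CPM of 24 cell cycle genes, ran from -0.94 to 0.81 in WT and from -0.43 to 0.75 in Pon2-/- mice with no difference detected between the genotypes (exact permutation p = 0.916). In an edgeR fit on genotype and score over 11824 genes, no gene had a slope at an FDR below 0.05, and 347 (2.93%) had an unadjusted p below 0.05, none of them a member. The slope of Ezh2 was 0.38 ± 0.31 log2 units per unit of score (SE; 95% interval -0.28 to 1.05). That of Dnmt1 was -0.14 ± 0.29 (SE; -0.77 to 0.48).

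Dnmt3b had the steepest slope of the members, at -0.60 ± 0.38 log2 units per unit (SE; edgeR, unadjusted p = 0.139). Slopes of the other members lay between -0.43 for Tet3 and 0.45 for Bmi1, and 6 of 10 were above 0. Of 74 tested genes of the wider pathway, 2 reached an unadjusted p below 0.05: Rbbp4, a histone-binding PRC2 subunit, with 0.63 ± 0.25 (SE), and Yaf2, a PRC1 subunit, with 0.80 ± 0.37 (SE).

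Windows of 250 bases before the listed RefSeq start sites (GRCm38.p6) were taken for all 10 members, with 14 windows in all. They were searched for the E2F-type motifs TTTCCCGC, TTTGGCGC, TTTCGCGC and TTTGCCGC on both strands. For Dnmt1 and its partner Uhrf1, which recruits Dnmt1 to replicated DNA, the only window with a match is shown, with the match in capitals. The Dnmt1 window is chr9:20952624-20952873 (minus strand), and that of Uhrf1 is chr17:56304063-56304312 (plus strand). Both lie inside the annotated gene, not before its 5' end. No match was held by the Dnmt1 windows chr9:20959889-20960138, which precedes that end, and chr9:20952980-20953229. The Uhrf1 window chr17:56303087-56303336 held none either.
Dnmt1: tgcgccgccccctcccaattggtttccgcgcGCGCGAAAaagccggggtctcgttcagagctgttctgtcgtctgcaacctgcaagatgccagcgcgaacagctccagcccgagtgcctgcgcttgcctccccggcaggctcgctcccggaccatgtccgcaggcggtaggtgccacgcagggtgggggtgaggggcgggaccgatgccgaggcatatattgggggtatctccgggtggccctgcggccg
Uhrf1: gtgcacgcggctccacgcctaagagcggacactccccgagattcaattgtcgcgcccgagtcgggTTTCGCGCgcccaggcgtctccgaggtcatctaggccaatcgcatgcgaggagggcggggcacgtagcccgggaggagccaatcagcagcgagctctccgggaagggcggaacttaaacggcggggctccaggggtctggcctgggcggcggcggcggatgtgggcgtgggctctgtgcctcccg

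A match was present in 1 of the 14 member windows and in 1.86% of 32851 windows of all genes. The Uhrf1 slope on the proliferation score was -0.29 ± 0.33 (SE), and that of Dnmt1 was given above, both with intervals that include 0. CpG sites in the member windows numbered between 2 and 51, the highest being that of Tet2, beside a median of 6 over all windows.

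The wider pathway was described by 82 genes in 6 lists, of which 74 passed the filter. None passed the thresholds, and the genotypes overlapped for all of them. Fitted changes lay above 0 for 38 genes and below 0 for 36, with a median of 0.04 on the log2 scale. Among 12 tested readers and partners of DNA methylation, 7 lay below 0, and among 9 tested partners of DNA demethylation, 7 lay above 0. Of 11 PRC2 subunits 8, of 21 PRC1 subunits 9 and of 9 Polycomb erasers 6 lay above 0. Of 12 tested Polycomb targets, 3 lay above 0 and 9 below, with a median of -0.14.

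**Figure D5:**
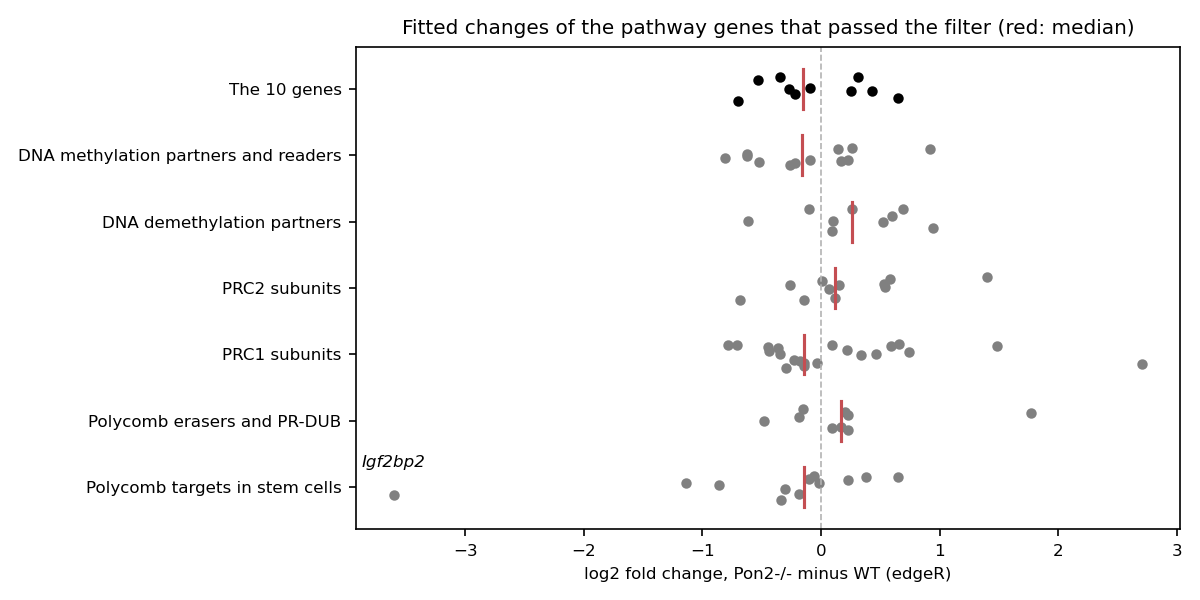
Log2 fold change of Pon2-/- over WT (edgeR) for the 10 members (black) and for the tested genes of 6 pathway lists (grey), with the median of each list in red. The medians lie near 0, and Igf2bp2 stands apart at -3.60.

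None of the core partners of the members passed the threshold. Uhrf1 had 49.7 CPM (median) in WT and 60.8 CPM in Pon2-/- mice, with a log2 fold change of 0.14 ± 0.32 (SE). For the PRC2 subunits Eed and Suz12 the log2 fold changes were 0.12 ± 0.37 and -0.26 ± 0.86 (SE), and for Rnf2, the catalytic subunit of PRC1, it was -0.18 ± 0.41 (SE). The value of Suz12 was -1.18 with limma voom, -1.10 with a replicate block and -0.88 without Pon2-/- replicate 5. Without Pon2-/- replicate 2 it was -0.0012. Kdm6a, a demethylase of lysine 27 of histone H3, had a log2 fold change of 0.22 ± 0.66 (SE), which was 0.92 without WT replicate 2 and -0.02 without Pon2-/- replicate 5.

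Among Polycomb targets, the cell cycle inhibitor genes Cdkn2a and Cdkn2b had no count in any of the 12 libraries, where 3 counts correspond to 0.121 to 0.235 CPM. Hoxa9, a homeobox gene of stem cells, lay at 89.7, 181 and 274 CPM in WT and at 123, 164 and 249 CPM in Pon2-/- mice. Cdkn1c, which encodes the p57 inhibitor of quiescent stem cells, lay at 7.22, 14.1 and 22.1 CPM in WT and at 4.58, 7.70 and 12.7 CPM in Pon2-/- mice. Its ranges overlapped, and the log2 fold change was -0.86 ± 0.63 (SE; edgeR, unadjusted p = 0.195, adjusted p = 0.9999). The exact permutation test gave an unadjusted p of 0.0216, and DESeq2 gave 0.0107 unadjusted and 0.2945 adjusted.

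The smallest p of the wider pathway belonged to Igf2bp2, an RNA-binding protein gene, with 2.61, 19.5 and 41.4 CPM in WT and 0.0598, 0.55 and 5.69 CPM in Pon2-/- mice. It lay below all WT mice in 4 Pon2-/- mice. The log2 fold change of -3.60 ± 1.23 (SE) had an unadjusted p of 0.0113 and an adjusted p of 0.9999 (edgeR), while DESeq2 gave an adjusted p of 0.0203, the only call of that tool among these genes, beside 1.19% of all genes. Its exact permutation p was 0.00649, unadjusted. The log2 fold change was -3.23 without WT replicate 1, -4.63 without Pon2-/- replicate 5, -4.56 with limma voom and -5.00 with a replicate block.

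The next 4 genes by p were all fitted higher in Pon2-/- mice, none past the threshold. Cxxc5, a CpG-binding protein gene, had a log2 fold change of 0.60 ± 0.30 (SE), and Jarid2, a PRC2 cofactor, of 1.40 ± 0.72 (SE). Mbd5, which belongs to the methyl-binding domain family, had 1.77 ± 0.92 (SE), and Pcgf6, a PRC1 subunit without counts in 2 WT libraries, had 2.71 ± 1.45 (SE). The value of Pcgf6 was 2.43 without WT replicate 6, 3.70 without WT replicate 5, 5.07 with limma voom and 5.69 with a replicate block. That of Mbd5 ran from 1.17 without Pon2-/- replicate 4 to 2.39 with limma voom. For Cxxc5 it ran from 0.43 without Pon2-/- replicate 4 to 0.73 without WT replicate 3. Unadjusted exact permutation p-values were 0.0108 for Pcgf6, 0.0238 for Jarid2, 0.0541 for Mbd5 and 0.0584 for Cxxc5. Some WT values behind them were very low: Jarid2 stood at 0.508 CPM in WT replicate 5 and Pcgf6 at 0.0424 CPM in WT replicate 1. The log2 fold change of Jarid2 ran from 1.14 without WT replicate 5 to 1.91 with limma voom.

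For each member except Tet2, the tested gene with the most similar log2 CPM over the 12 samples was named, as a description. The closest were Zbed4 for Tet3 (Pearson r = 0.959), Mrpl46 for Tet1 (0.94) and Mlec for Asxl1 (0.932). For the others they were Klhl18 for Dnmt3a (0.925), Plxna3 for Ezh2 (0.907), Tbc1d5 for Bmi1 (0.894), Gm26637 for Dnmt1 (0.879), Gcdh for Ezh1 (0.877) and Zc3h14 for Dnmt3b (0.863). Each is the highest of 11848 genes over few samples of both genotypes, and none of these members had another member as its closest gene.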

How the data were processed

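Per the labels and the study's methods, the authors sorted HSCs, prepared Smart-seq2 libraries, trimmed reads with Trimmomatic 0.36, aligned them to GRCm38.p5 with STAR 2.5.3a and deposited counts per GENCODE gene. The unstranded count was used, without normalization. Symbols and positions came from GENCODE M21. In R 4.3.3, edgeR 4.0.16 (TMM, filterByExpr, quasi-likelihood test, genotype as the only term) was fitted on all genes, with Benjamini-Hochberg adjustment. CPM are counts per 1000000 TMM-scaled counts on tested genes, as in the fit. This denominator replaced all counts on genes after the values had been seen. The effect is given in the closing section. Log2 CPM used a prior count of 2. Exact permutation tests were two-sided. Scripts were tested on simulated data. Alternatives were DESeq2 1.42.0, limma 3.58.1, other filters and scalings, leaving out each mouse, and a replicate block. The members and lists were chosen with earlier results of these data known. Named were the members, Pon2, 8 pathway genes, those past the thresholds or without overlap, the 5 smallest p, and the most similar gene for each member, of which that for Tet2 is not reported here.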

Additional observations from a re-analysis of the deposited data

Results flagged for a closer look

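Among 54 groups of 6 mice examined, 3 held a mouse set far apart from the others (Dixon's test at 95%), where chance flags about 1 group in 20. Tet2 in Pon2-/- replicate 6 was the highest of its genotype at 187.7 CPM. Kdm6a in WT replicate 2 was the highest of its genotype at 112.3 CPM. Pon2 in Pon2-/- replicate 5 was the lowest of its genotype at 1.157 CPM.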

How the results depend on the processing

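No member was called under any alternative, with edgeR, limma or DESeq2. The number of genes called (24) was 8 without a filter, 304 with DESeq2, 5 with the replicate block and 20 to 28 when leaving out each mouse. DESeq2 called 1 pathway gene (Igf2bp2) and 1304 slopes on the proliferation score, where edgeR called 0. The cause was not tested. Mice of the same number did not deviate together (correlations from 0.00093 to 0.043), so numbers were not treated as pairs.

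Without Pon2-/- replicate 5 or 6, the Dnmt3a to Dnmt3b ratio fell to an exact permutation p of 0.0368, with the difference between -1.41 and -0.76 over all omissions. Without replicate 5, Dnmt3b (0.0476) and Asxl1 (0.0238) also had an exact permutation p below 0.05, and without replicate 6 Tet2 did (0.0195). The edgeR fit without Pon2-/- replicate 5 gave unadjusted p-values of 0.0311 for Dnmt3b and 0.0493 for Asxl1 (adjusted p = 0.9999 for both). Leaving out single mice turned the sign of the fold change of Tet2 (-0.96 to 0.017) and Bmi1 (-0.37 to 0.22), of the log2 CPM difference of Bmi1 (-0.27 to 0.33), and of the slopes of Dnmt1 (-0.42 to 0.14), Tet2 (-0.49 to 0.37), Tet3 (-0.64 to 0.031), Ezh1 (-0.51 to 0.44), Bmi1 (-0.098 to 0.87) and Asxl1 (-0.48 to 0.56). The Tet2 slope was 0.0052 with limma voom and 0.085 with the replicate block, that of Ezh1 -0.48 with the block and that of Asxl1 -0.081 with limma voom. With all counts on genes in the CPM denominator, an alternative added after seeing the data, 74 genes did not overlap and 229 were below all WT mice in Pon2-/- replicates 1, 2 and 3, 3 members among them. Intervals of the members were over 1 log2 unit wide, so that changes within them could not be detected.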
